A study of Homo sapiens with 4 samples.

Results

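Long intergenic non-coding RNA genes with a LINC symbol were examined for the places where HNRNPC and PABPC4 touched their transcripts in MDA-MB-231 cells, an established triple-negative human breast cancer line. Genes were chosen by the presence of a listed peak: the NCBI Gene ID of the peak had to carry a symbol of LINC and a number, and the peak centre had to lie within the annotated gene on its strand. This selected 228 LINC genes among the 12739 genes of all kinds with a peak inside, so having a peak is a condition of entry here and not a result. All 4 samples came from the same line, with no treatment named besides cross-linking by 400 mJ per square centimetre of ultraviolet light at 254 nm, and 2 were immunoprecipitated for HNRNPC by CLIP and 2 for PABPC4 by PAPERCLIP, a form of CLIP that marks 3′ ends. The samples of each protein were pooled before peaks were called, so each protein had 1 list, replicate error could not be given for any value, and no test between the lists was possible. A peak's height is the number of unique pooled tags, which are sequenced RNA fragments, at its summit, and the reads behind each library were not analysed here.

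Long non-coding RNAs are transcribed by RNA polymerase II, are often spliced, capped and polyadenylated like messenger RNAs, and are usually made at low levels. The LINC symbol is a systematic name given to those that lie between protein-coding genes and have no better functional name. PABPC4 is a poly(A)-binding protein that the study describes as shuttling between nucleus and cytoplasm. PAPERCLIP reads the RNA attached to PABPC4 by reverse transcription that starts at stretches of A. The 3′ edge of a peak should therefore lie where a poly(A) tail begins. HNRNPC is a mostly nuclear protein that binds runs of U in pre-mRNA, many of them in introns. Cleavage before polyadenylation is usually directed by AAUAAA or AUUAAA a short way upstream, written AATAAA and ATTAAA in the genome and called the poly(A) signal here. A stretch of A encoded in the genome, in contrast, can be met by an oligo(dT) primer without any tail, and any such stretch within 50 nt downstream of a peak was recorded as A-rich when it had 6 A side by side or at least 7 A among 10 bases. Their part in any peak was not tested.

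Gene models came from GENCODE 44 on GRCh38 and were matched by symbol. Of 2312 LINC symbols, 2194 had a model, and 254 had a listed peak of either protein. Among these 254 genes, 228 held a peak inside the model, 12 had listed peaks only outside it, and 14 had no model under their symbol. The label held for nearly all members, since GENCODE classed 227 of 228 as lncRNA and LINC01667 as a transcribed processed pseudogene. The word intergenic held less widely: 22 members overlapped the span of a protein-coding gene on either strand. Markers of the line were checked in the PABPC4 list, with a PABPC4 end peak of 10197 tags in the mesenchymal filament gene VIM, 1323 in ANXA1 and 331 in CD44, no PABPC4 peak in the progesterone receptor gene PGR, and none above 7 tags in the oestrogen receptor gene ESR1. The epithelial cadherin gene CDH1 had an end peak of 56 tags.

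Few LINC genes had a peak at all. PABPC4 peaks lay inside 220 of 2194 LINC genes (10.0%, 95% Wilson interval 8.84 to 11.3%), against a background of 31.4% of all 40160 genes with a model, LINC genes included. HNRNPC peaks lay inside 21 (0.957%, 0.627 to 1.46%), against 9.64% of all genes. Peaks of both proteins were found in 13 LINC genes (0.593%, 0.347 to 1.01%), against 9.35% of all genes, which left 207 members with PABPC4 peaks alone and 8 with HNRNPC peaks alone. A PABPC4 peak at an annotated transcript end was found in 33 LINC genes (1.504%), against 21.4% of all genes. These intervals cover counting error only. Neither the amount of each RNA in the cells nor its stability was measured by these lists, and their part in the shares was not tested.

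**Figure D1:**
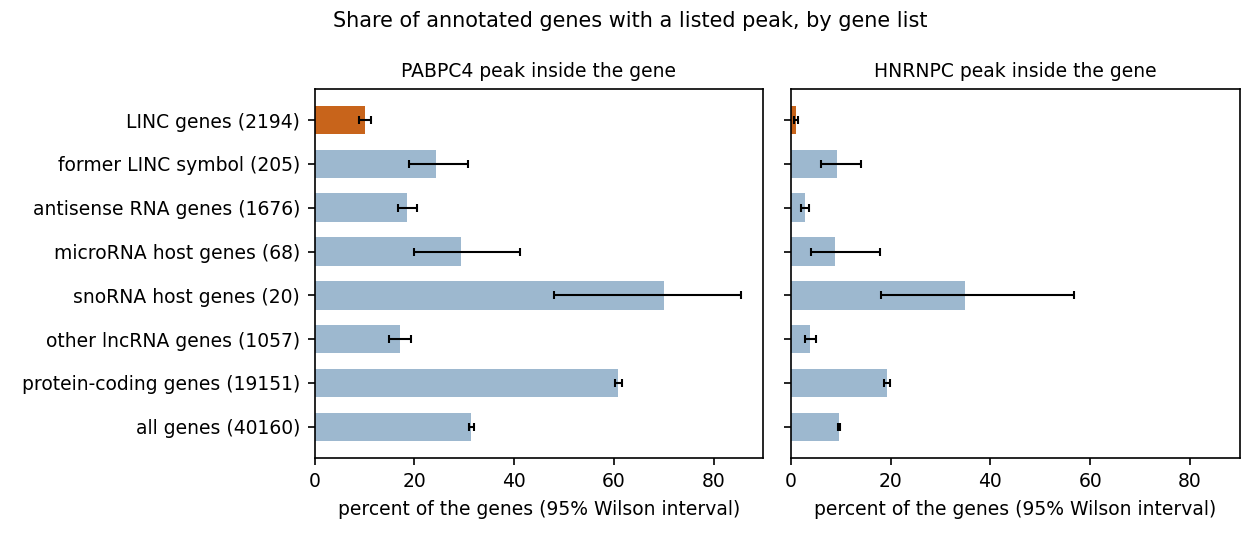
Percent of annotated genes (horizontal axis, with 95% Wilson intervals) that held a PABPC4 peak (left) or an HNRNPC peak (right), for LINC genes and 7 other gene lists, with the number of genes in brackets. LINC genes had the lowest share in both panels, 10.0% and 0.957%.

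Other non-coding gene lists chosen by symbol alone had larger shares. PABPC4 peaks lay inside 24.4% of 205 genes that once had a LINC symbol and now carry another name, inside 18.6% of 1676 antisense RNA genes, inside 29.4% of 68 microRNA host genes and inside 17.03% of 1057 other lncRNA genes. The small nucleolar RNA host genes, which are spliced and broadly transcribed, reached 70.0% of 20 genes, and protein-coding genes 60.9% of 19151. For HNRNPC the shares were 9.27% of former LINC symbols, 2.80% of antisense genes and 19.3% of protein-coding genes. The plot of shares by gene list shows that the interval for LINC genes lay below that of each of the other lists, with no test made between them.

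PABPC4 had 419 peak positions inside LINC genes of 63507 in its list, and HNRNPC had 34 of 9107. Of the members, 158 had 1 peak, 51 had 2 to 4 and 19 had 5 or more, and these counts were not made for all genes. The 158 single peaks had a median height of 19.5 tags (range 3 to 141), and 124 of them were PABPC4 peaks in introns. A peak-calling p-value of at most 0.001 was carried by 395 of the 419 PABPC4 peaks and by 24 of the 34 HNRNPC peaks. The same shares over the whole lists were not worked out. At that limit 214 members kept a peak.

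Most peaks lay in introns. Of the 419 PABPC4 positions, 35 (8.35%) had their 3′ edge within 50 nt of an annotated transcript end, 50 (11.9%) were centred in other exon sequence and the other 79.7% (75.6 to 83.3%) in introns, where the intron share over all genes was 60.7%. Most other non-coding lists had a high intron share too, with 75.9% in former LINC symbols, 74.5% in antisense genes, 87.9% in microRNA hosts and 75.9% in other long non-coding RNA genes, and the exception was 28.6% in small nucleolar RNA hosts. Of the 34 HNRNPC positions, 26 (76.5%) were in introns and 8 in exons, and the intron share over all genes was 86.2%. No HNRNPC peak of a LINC gene lay at an annotated end; 0 of 34 allows a share of up to 8.82% by 3 counts of 34 and up to 10.15% by the Wilson interval, and the share over all genes was 1.14%. Introns also made up nearly all of the length, because exons were 3.65% of the summed span of the members. Per length the order was the opposite: PABPC4 had 6.87 end or exon peaks per 100 kb of exon and 1.03 intron peaks per 100 kb of intron. HNRNPC had 0.647 exon peaks and 0.0797 intron peaks per 100 kb. All these densities are over the length of all members, with or without a peak of that protein, and were not worked out for all genes.

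**Figure D2:**
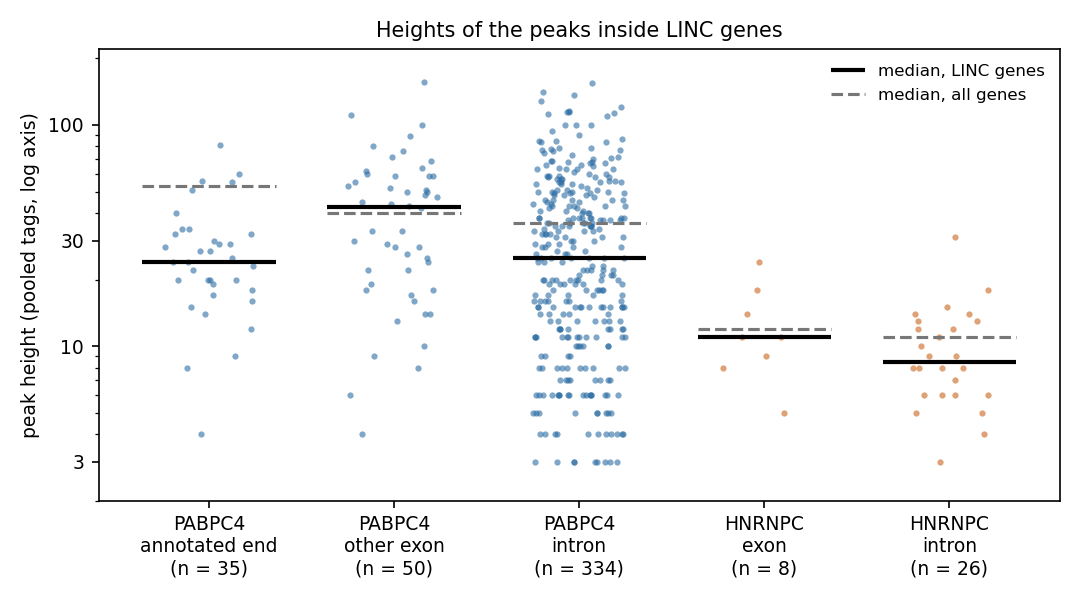
Height of each peak inside a LINC gene (vertical log axis, pooled tags) by protein and place in the gene, 1 point per position. Black lines are medians of the LINC peaks (24, 42.5, 25, 11 and 8.5 tags from left to right) and dashed grey lines the medians over all genes; at annotated ends the LINC median of 24 tags lies under the 53 tags of all genes.

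The end peaks of LINC genes were low. They had a median height of 24 tags (quartiles 18.5 and 32, highest 81), where end peaks of all genes had 53 and those of former LINC symbols 58, with a highest of 6176. Low ends were not particular to LINC genes, since the medians were 22 tags in antisense genes, 14 in microRNA hosts and 33.5 in other long non-coding RNA genes, though 114.5 in small nucleolar RNA hosts. Peaks in other exons of LINC genes had a median of 42.5 tags (quartiles 19.75 and 59, highest 156), close to the 40 of all genes. Intron peaks had a median of 25 tags (highest 155), where those of all genes had 36. The 5 tallest PABPC4 intron peaks stood at 121 to 155 tags, all above the tallest end peak of 81. HNRNPC peaks were low throughout, with a median of 9 tags in LINC genes and 11 over all genes, and none above 31.

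The members with an end peak were shorter than those with PABPC4 intron peaks alone and stood closer to coding genes. Their median span was 16979 nt (33 genes), where the 167 members with PABPC4 intron peaks alone spanned a median of 123801 nt and all LINC genes with a model 18278.5 nt. Among the 183 members with a PABPC4 intron peak, span and the number of such peaks had a Spearman's rho of 0.276, a description across genes that share libraries. The median distance to the nearest protein-coding gene was 10740 nt for members with an end peak and 85880 nt for those with intron peaks alone. It was 64070 nt for all 228 members and 8419 nt for the 21 with an HNRNPC peak. A coding gene lay within 5 kb of 15 of 33 members with an end peak (45.5%) and of 25 of 167 with intron peaks alone (14.97%). That share was 23.25% of all members and 38.1% of those with an HNRNPC peak. These distances were not worked out for LINC genes without a peak.

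At annotated ends, the distance of a peak from the end differed with its sequence features. The distance from the peak's 3′ edge to the nearest annotated end had a median of 7 nt, 20 of 35 peaks lay within 10 nt, and 25 ended before the annotated end, 2 exactly at it and 8 past it. A poly(A) signal in the last 40 nt was found in 18 of 35 end peaks (51.4%, 35.6 to 67.0%), against 61.4% over all genes. An A-rich stretch downstream was found in 16 (45.7%, 30.5 to 61.8%), against 29.3% over all genes, 48.9% in former LINC symbols and 47.2% in other long non-coding RNA genes. Counting only 6 A in a row the share was 20% (10.04 to 35.9%), against 14.1% over all genes, and within 20 nt it was 28.6% (16.3 to 45.1%), against 17.7%, so under both narrower definitions the LINC interval covers the share over all genes. Of the 13 end peaks with a signal and no A-rich stretch, 12 lay within 5 nt of the annotated end. Of the 11 with an A-rich stretch and no signal, 1 did, and their median distance was 24 nt. The signal was sought only before the edge and the A-rich stretch only after it. A peak ending well short of an annotated end can therefore have the signal of that end in its downstream window. How far these windows set the difference in distance was not tested. The distances and their split by feature were not worked out over all genes, so neither is shown to be particular to LINC genes. A further 5 peaks had both features and 6 had neither. Median heights of these 4 groups were 25, 30, 22 and 23.5 tags in the order given. Raising the height limit to the median of the whole PABPC4 list kept 6 of the 35 end peaks. Without peaks inside another same-strand gene, 32 end peaks remained, 46.88% with a signal and 50% with an A-rich stretch.

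**Figure D3:**
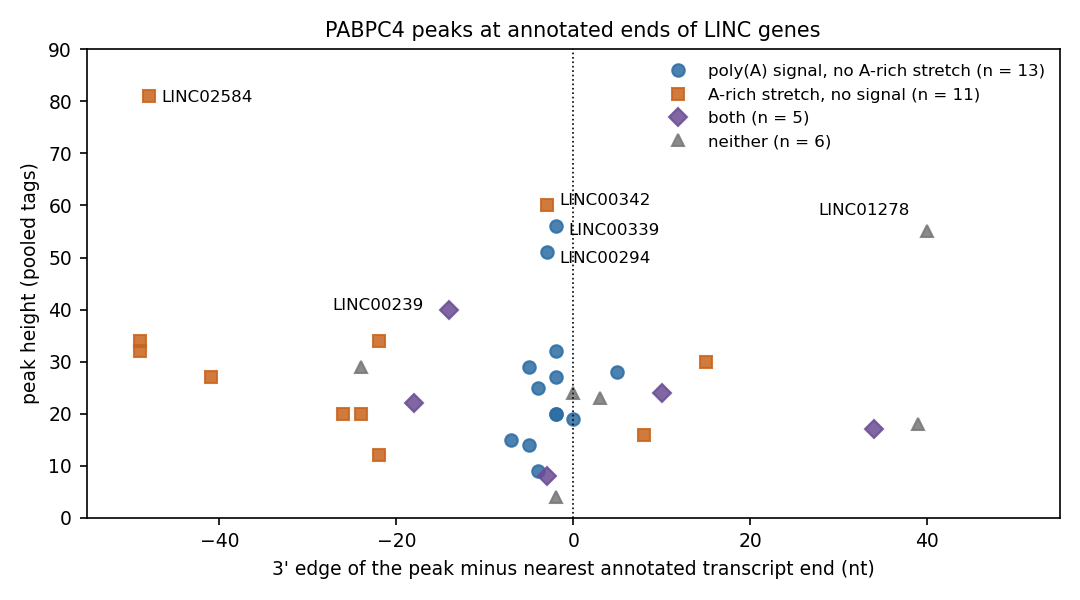
The 35 PABPC4 peaks at annotated ends of LINC genes, by distance of the peak's 3′ edge from the nearest annotated transcript end (horizontal axis, nt, negative before the end) and height (vertical axis, pooled tags). Circles with a poly(A) signal and no A-rich stretch sit within 7 nt of the end, and squares with an A-rich stretch and no signal spread out to 49 nt.

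The 8 genes with the tallest end peaks include peaks close to an annotated end and peaks farther from it. LINC02584, which lies within the span of the chloride channel gene ANO1 on the other strand, had the tallest, 81 tags at chr11:70072482-70072528, with its edge 48 nt short of the annotated end, an A-rich stretch and no signal before the edge. That A-rich stretch itself contains AATAAA, past the edge. LINC00342 had 60 tags with its edge 3 nt before the end, an A-rich stretch and no signal. LINC00339 had 56 tags with its edge 2 nt before the end and an ATTAAA signal, though a second annotated gene on the same strand also covers that place. LINC01278 had 55 tags with its edge 40 nt past an annotated end and neither feature. LINC00294 had 51 tags with its edge 3 nt before the end and an AATAAA signal. That peak also lies within TCP11L1 on the same strand and opposite CSTF3, which encodes a subunit of the 3′ end cleavage machinery, and tags of overlapping same-strand genes cannot be told apart. LINC00239 had 40 tags, 14 nt before the end, with both features. LINC01116 and LINC01355 had 34 tags each at 49 and 22 nt before an end, both with an A-rich stretch and no signal.

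These windows show what end peaks close to and farther from an annotated end looked like in the genome. Of the genes shown, LINC00339, LINC00294 and LINC01089 overlap another annotated gene on the same strand. Each run below gives, 5′ to 3′ on the gene's strand in GRCh38, the last 40 nt up to the peak's 3′ edge followed by 50 nt downstream. Capitals in the first 40 letters mark AATAAA or ATTAAA, and capitals in the last 50 mark an A-rich stretch.
LINC00339 end peak, chr1:22031178-22031267, plus strand: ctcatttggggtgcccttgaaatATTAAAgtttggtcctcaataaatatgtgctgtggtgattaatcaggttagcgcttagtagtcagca
LINC00294 end peak, chr11:33079412-33079501, plus strand: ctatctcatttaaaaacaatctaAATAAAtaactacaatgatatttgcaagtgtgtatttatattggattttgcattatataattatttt
LINC01089 end peak, chr12:121795219-121795308, minus strand: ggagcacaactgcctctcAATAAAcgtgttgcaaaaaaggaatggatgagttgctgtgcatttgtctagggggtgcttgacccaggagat
LINC01116 second end peak, chr2:176629543-176629632, minus strand: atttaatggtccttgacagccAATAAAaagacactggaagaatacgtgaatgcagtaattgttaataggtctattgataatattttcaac
LINC00239 end peak, chr14:101732481-101732570, plus strand: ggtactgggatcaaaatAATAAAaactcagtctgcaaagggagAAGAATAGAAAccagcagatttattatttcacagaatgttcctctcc
LINC01116 first end peak, chr2:176629839-176629928, minus strand: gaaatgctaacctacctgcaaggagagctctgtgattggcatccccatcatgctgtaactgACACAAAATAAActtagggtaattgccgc
LINC02584 end peak, chr11:70072432-70072521, minus strand: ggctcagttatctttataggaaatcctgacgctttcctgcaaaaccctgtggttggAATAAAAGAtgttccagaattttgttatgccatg

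Of the 11 end peaks with an A-rich stretch and no signal before the edge, 9 ended before the annotated end, and 6 had AATAAA or ATTAAA in the 50 nt downstream instead. These 6 were in LINC00261, LINC00342, LINC00472, LINC01116, LINC01546 and LINC02584. Neither count was worked out over end peaks of all genes. In LINC02584 and LINC01116 the A-rich stretch contains that AATAAA, and in LINC00342 it overlaps an ATTAAA. There the downstream signal and the A-rich stretch share bases. LINC01116 showed both kinds in 1 gene: a peak of 34 tags 49 nt before 1 annotated end with an A-rich stretch, and a peak of 27 tags 2 nt before another with AATAAA and no A-rich stretch. LINC00205 had 2 end peaks too, of 27 and 12 tags at 41 and 22 nt before an end, both with an A-rich stretch and no signal. Further end peaks with a signal, no A-rich stretch and an edge at 0 to 7 nt included LINC03011 (29 tags), LINC00649 (28 tags), LINC00662 (25 tags), LINC02475 (20 tags), LINC02298 (20 tags) and LINC01963 (19 tags). The LINC00649 peak was listed under 6 gene IDs. LINC00261, a neighbour of the endoderm factor gene FOXA2, had an end peak of 32 tags 49 nt before an end with an A-rich stretch and no signal. The 50-nt limit had 49 nt as the largest distance inside it, and the 6 peaks just outside it lay at 57 to 91 nt.

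Peaks in other exons were spread over 34 members. An A-rich stretch was found downstream of 24 of 50 (48.0%, 34.8 to 61.5%), against 47.5% over all genes, and a signal in 7 (14%), against 19.4%. The tallest of all PABPC4 peaks in LINC genes was of this kind, 156 tags in LINC00472, an RNA studied as a tumour suppressor in breast cancer, at chr6:71410520-71410566. It lay 2656 nt before the nearest annotated end and had neither feature. LINC00205 had 111 tags with an A-rich stretch, 104 nt before an annotated end and next to its own end peak of 27. LINC01355 had 100 tags, 117 nt before an end, with neither feature, and LINC02615 had 89 tags with an A-rich stretch. LINC00702 had 80 tags, 102 nt past an annotated end, with neither feature. LINC00472 alone held 7 of the 50 exon peaks.

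Windows of both kinds stand side by side among these exon peaks, without and with a stretch of A after the peak, in the layout used for the end peaks.
LINC00472 exon peak, chr6:71410470-71410559, minus strand: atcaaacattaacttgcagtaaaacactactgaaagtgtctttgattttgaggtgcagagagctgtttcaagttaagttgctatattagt
LINC00702 exon peak, chr10:4234443-4234532, minus strand: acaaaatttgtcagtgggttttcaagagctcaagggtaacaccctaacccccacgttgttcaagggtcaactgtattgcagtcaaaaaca
LINC00205 exon peak, chr21:45290509-45290598, plus strand: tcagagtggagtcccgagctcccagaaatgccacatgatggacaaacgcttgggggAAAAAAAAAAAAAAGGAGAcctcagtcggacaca
LINC02615 exon peak, chr4:128470103-128470192, plus strand: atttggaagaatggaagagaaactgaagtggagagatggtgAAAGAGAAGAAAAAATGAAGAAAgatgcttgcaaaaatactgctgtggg

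In introns the A-rich stretch was the rule and the signal the exception, as it was for genes at large. Of the intron positions, 68.6% (63.4 to 73.3%) had an A-rich stretch downstream, against 71.2% over all genes. A poly(A) signal was found in 41 (12.3%, 9.18 to 16.2%), against 6.32% over all genes, 11.45% in other long non-coding RNA genes and 8.87% in antisense genes. Among intron peaks at or above the median height of the list the LINC share was 6.09% (2.98 to 12.03%), against 5.16% over all genes at that height. Without peaks in repeated sequence it was 16.9% (12.7 to 22.1%), against 10.5% over all genes. Counted once per gene, the 230 intron peaks with an A-rich stretch had a median height of 28.5 tags and the 106 without one 14 tags. A 16-base word found at least 100 times on chromosome 22, used as a mark of repeated sequence, was held by 91 (27.2%), against 45.5% of intron peaks of all genes. It was held by 10.0% of exon peaks and 2.86% of end peaks of LINC genes, against 10.6% and 3.65% over all genes.

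**Figure D4:**
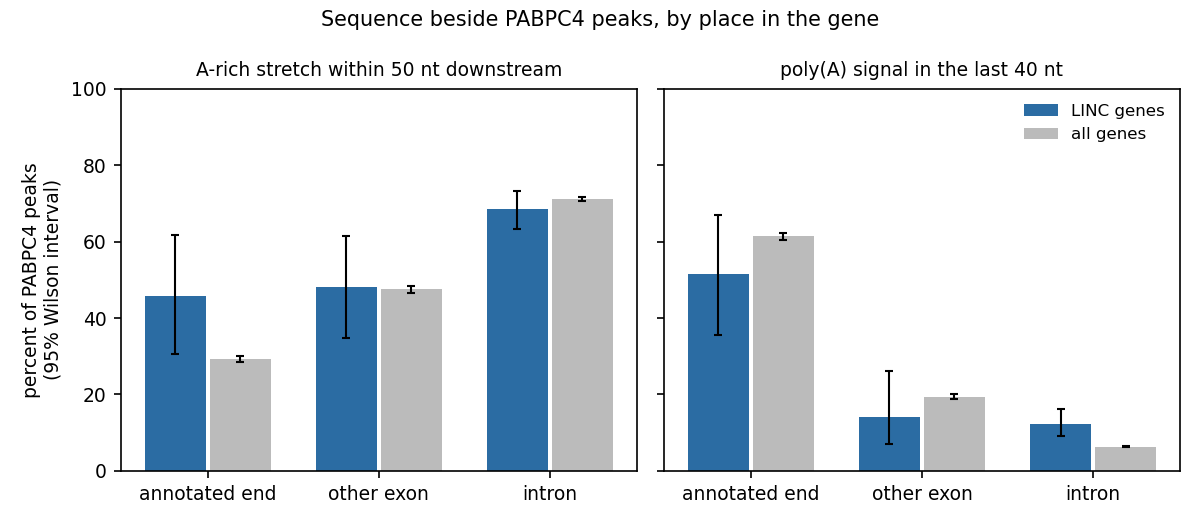
Percent of PABPC4 peaks (vertical axis, with 95% Wilson intervals) that had an A-rich stretch within 50 nt downstream (left) or a poly(A) signal in the last 40 nt (right), by place in the gene, for LINC genes and for all genes. The A-rich share in LINC genes runs from 45.7% at ends to 68.6% in introns, and the signal share from 51.4% at ends to 12.3% in introns.

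The 5 tallest intron peaks lay in genes with 1 to 10 intron peaks of PABPC4. LINC01004, which lies opposite the chromatin regulator gene KMT2E, had 155 tags at chr7:104987531-104987578, 25514 nt from the gene start, in repeated sequence with an A-rich stretch, and 4 further intron peaks of 37 to 63 tags. LINC00448 had 141 tags in repeated sequence with an A-rich stretch, and this was its only peak. LINC01117 had 137 tags and LINC01340 had 121 tags, both with an A-rich stretch and outside repeated sequence, and that of LINC01340 was its only peak. LINC01619, which overlaps the antiproliferative gene BTG1, had 128 tags with no A-rich stretch and no signal, and 9 further intron peaks of 8 to 114 tags. The pseudogene-classed LINC01667 had an intron peak of 100 tags in repeated sequence with an A-rich stretch.

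Windows of a pair of these outside repeated sequence show an intron peak with a long stretch of A and one with no stretch at all.
LINC01117 intron peak, chr2:176638935-176639024, plus strand: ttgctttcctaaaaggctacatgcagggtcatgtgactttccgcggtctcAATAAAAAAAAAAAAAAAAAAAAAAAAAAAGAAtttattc
LINC01619 intron peak, chr12:92110676-92110765, minus strand: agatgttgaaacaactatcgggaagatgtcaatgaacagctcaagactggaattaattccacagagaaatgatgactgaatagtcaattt

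Away from annotated ends, 21 PABPC4 peaks had a poly(A) signal and no A-rich stretch, a pairing also seen at 13 end peaks. The 3 in exons were 6.0% of exon peaks (2.06 to 16.2%), against 13.95% over all genes. The 18 in introns, each in a different gene, were 5.39% of intron peaks (3.44 to 8.36%), against 2.1% over all genes. That intron share was 6.02% in other long non-coding RNA genes, 4.34% in antisense genes, 2.27% in former LINC symbols and 1.61% in microRNA hosts. The median height was 44 tags for the 3 in exons and 7 tags for the 18 in introns. The tallest was an intron peak of 110 tags in LINC02008, 50058 nt before the nearest annotated end. LINC00261 had an exon peak of this kind of 52 tags 445 nt before an end, taller than its end peak of 32. LINC00667 had one of 44 tags in an exon. Below these came an intron peak of 26 tags in LINC02388 and an exon peak of 22 tags in LINC01234, and the rest had 14 tags or fewer. The 3 tallest are printed in the same layout.
LINC02008 intron peak, chr3:82331807-82331896, plus strand: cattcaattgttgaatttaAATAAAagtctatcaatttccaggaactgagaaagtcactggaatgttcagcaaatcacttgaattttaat
LINC00261 exon peak, chr20:22564451-22564540, minus strand: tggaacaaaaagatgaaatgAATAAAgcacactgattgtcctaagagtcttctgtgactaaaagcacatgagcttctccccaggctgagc
LINC00667 exon peak, chr18:5239818-5239907, plus strand: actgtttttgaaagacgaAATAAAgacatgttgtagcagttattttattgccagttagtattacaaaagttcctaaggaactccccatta

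HNRNPC peaks were found in 21 LINC genes. LINC01089, an RNA described as repressed by epidermal growth factor in mammary cells, had the tallest, 31 tags at chr12:121796283-121796411 in an intron, 293 nt before an annotated end. The site also lies within RHOF, a coding gene on the same strand, so its tags cannot be given to either gene. LINC00641 had 24 tags in an exon, and its nearest protein-coding gene, 2236 nt away, is HNRNPC itself. LINC00665, a source of a micropeptide studied in triple-negative breast cancer, had 18 tags in an exon, and LINC02018 had 18 tags in an intron within repeated sequence. LINC00511, studied as a growth-promoting RNA in several cancers, had 15, 9 and 8 tags at 3 intron sites. LINC01128 had 14 tags in an exon. LINC00472 had the most HNRNPC peaks, 5 of 8 to 13 tags, followed by LINC00511 and LINC02762 with 3 each. The 8 members with HNRNPC peaks alone were LINC00641, LINC01128, LINC01192, LINC01483, LINC01772, LINC02213, LINC02656 and LINC02762.

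Runs of U are the textbook HNRNPC site. At least 5 U in a row were found in 3 of 34 peaks (8.82%, 3.05 to 23.0%), against 13.5% of HNRNPC peaks of all genes, and in the 50 nt upstream of 8 of 34 (23.5%, 12.4 to 40%), against 30.8%. With 4 U in a row the share was 32.4% (19.1 to 49.2%), against 30.1%, and all 3 LINC intervals cover the share over all genes. LINC00472 held 2 of the 3, and without that gene the share was 3.45%. Repeated sequence was held by 9 of 34 peaks (26.5%), against 35.5% over all genes. The letters GTGTCA within the last 12 nt were found in 8 of 34 (23.5%), among them the peaks of LINC01089, LINC00641 and LINC00511, and in 20.4% of all HNRNPC peaks; their origin was not tested. Whole peaks are printed for the tallest sites and for the LINC00472 sites with a run of U, and capitals mark 5 or more T in a row (U in the RNA) or GTGTCA at the 3′ end.
LINC01089 intron peak, chr12:121796283-121796411, minus strand: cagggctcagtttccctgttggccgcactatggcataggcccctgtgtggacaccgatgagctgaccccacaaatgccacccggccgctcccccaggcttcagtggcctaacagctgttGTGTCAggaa
LINC00641 exon peak, chr14:21202059-21202185, minus strand: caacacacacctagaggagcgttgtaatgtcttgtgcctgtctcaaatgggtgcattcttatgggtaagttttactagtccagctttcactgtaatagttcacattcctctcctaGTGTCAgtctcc
LINC00511 intron peak, chr17:72575850-72575943, minus strand: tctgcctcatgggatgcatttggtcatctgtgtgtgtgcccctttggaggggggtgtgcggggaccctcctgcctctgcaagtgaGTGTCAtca
LINC00472 exon peak, chr6:71412552-71412741, minus strand: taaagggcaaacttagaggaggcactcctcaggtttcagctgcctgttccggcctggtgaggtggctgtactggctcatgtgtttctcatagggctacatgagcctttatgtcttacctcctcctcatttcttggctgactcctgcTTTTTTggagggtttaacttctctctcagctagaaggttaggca
LINC00472 intron peak, chr6:71419737-71419916, minus strand: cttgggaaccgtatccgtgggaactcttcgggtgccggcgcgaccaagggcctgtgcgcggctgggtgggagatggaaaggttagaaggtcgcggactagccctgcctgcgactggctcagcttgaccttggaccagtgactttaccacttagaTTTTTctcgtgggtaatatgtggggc

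Peaks of both proteins were found in 13 LINC genes. The 23 HNRNPC peaks of these genes lay a median of 3350 nt from the nearest PABPC4 peak of the same gene (332 to 78775 nt), and 0 overlapped one. Neither value was worked out over all genes, so neither is shown to be particular to LINC genes. LINC00472 had the most peaks, 14 of PABPC4 and 5 of HNRNPC, and it also held the 3 shortest distances, 332, 524 and 528 nt. Its PABPC4 peaks ranged from 8 to 156 tags with a median of 29, 8 of 14 had an A-rich stretch and 0 had a signal. They lay between 8431 and 77268 nt from the start of a 233585-nt gene, which has 38 annotated transcript ends. LINC00511 had 14 PABPC4 peaks of 8 to 94 tags, all in introns, between 62480 and 201953 nt from the start of a 350382-nt gene, and 7 of them were in repeated sequence. LINC01278 had 10 PABPC4 peaks of 7 to 84 tags, and its tallest lies 7 nt from the annotated end of SPIN4, a coding gene on the same strand, with both a signal and an A-rich stretch. Among the PABPC4 peaks away from the members' own ends, 3 lay this close (within 50 nt) to an annotated end of another same-strand gene, the others being the 100-tag intron peak of LINC00472 and a 22-tag exon peak of LINC00941. LINC01776 had 10 of 11 to 112 tags, 9 of them with an A-rich stretch, and 2 HNRNPC peaks of 6 tags each. LINC01572 had 9 of 10 to 84 tags, all 9 with an A-rich stretch, and HNRNPC peaks of 7 and 5 tags. The remaining genes with both proteins were LINC00630, LINC00665, LINC00886, LINC01089, LINC01337, LINC01605, LINC02018 and LINC02693.

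**Figure D5:**
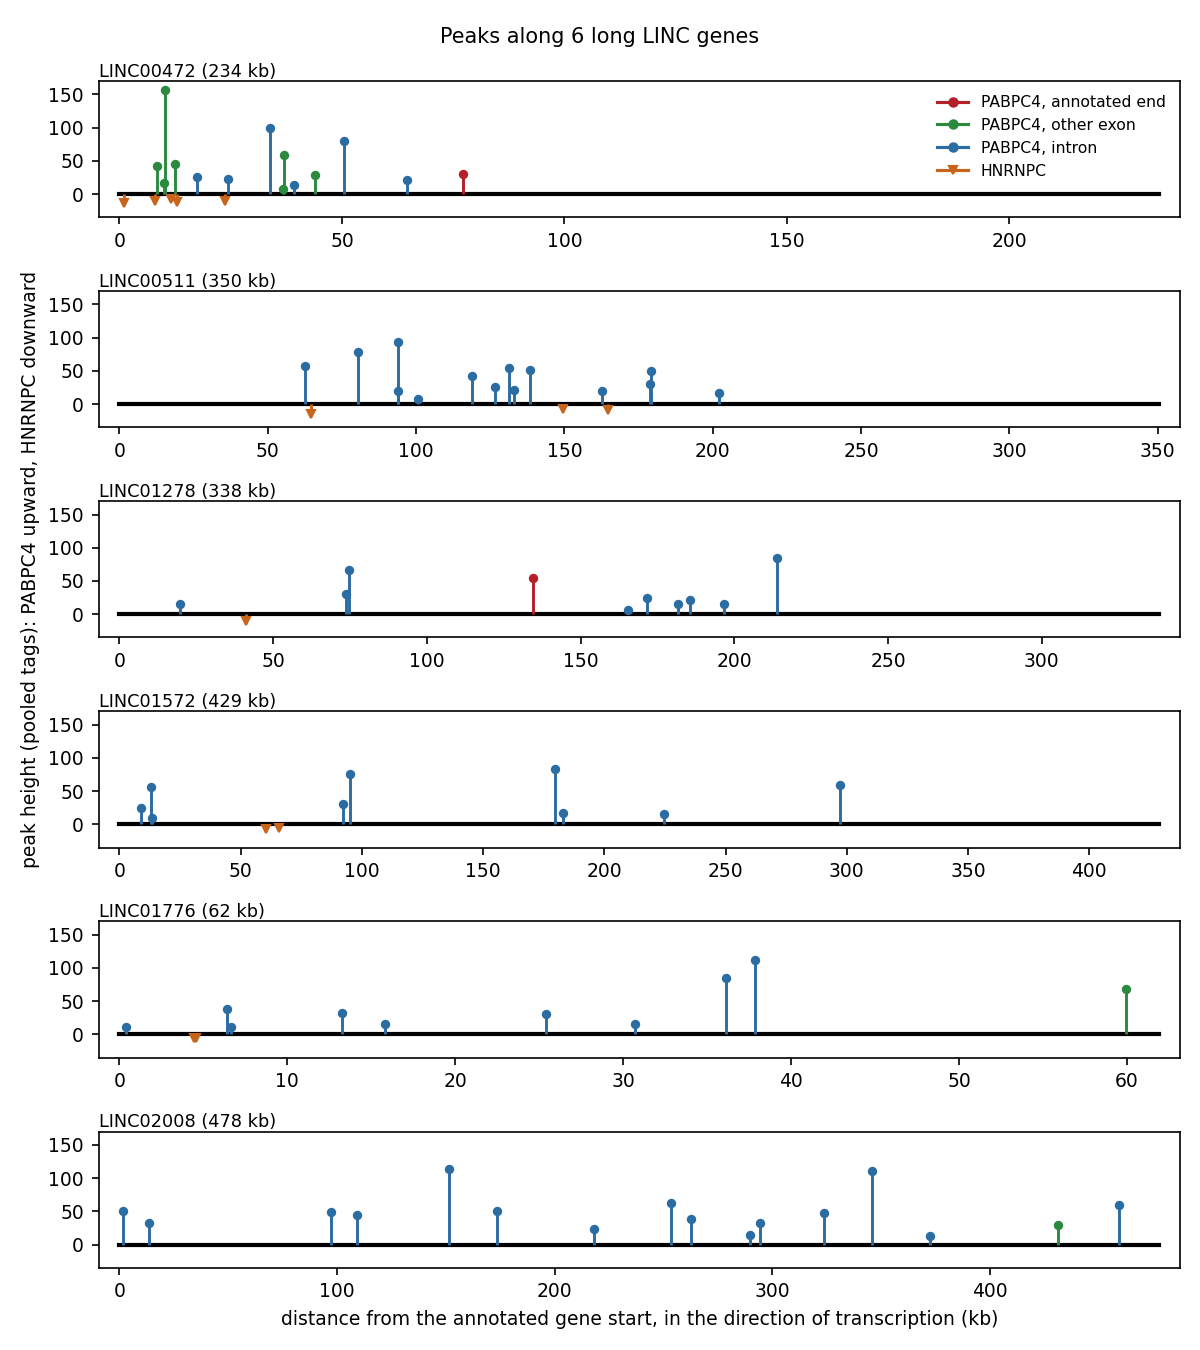
Peaks along 6 long LINC genes, by distance from the annotated gene start in the direction of transcription (horizontal axis, kb) and height (vertical axis, pooled tags), with PABPC4 drawn upward and coloured by place and HNRNPC drawn downward. PABPC4 peaks of LINC00472 stop 77268 nt from the start, while those of LINC02008 run from 1557 to 459163 nt.

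The largest number of PABPC4 peaks was in LINC02008, 16 of 13 to 114 tags with a median of 46, spread over its whole 477538 nt with 1 in an exon and none at an annotated end. It had no HNRNPC peak. An A-rich stretch followed 13 of the 16. LINC01619 had 10 PABPC4 peaks, all in introns, with a median of 41.5 tags. The 5 members with the most PABPC4 peaks held 15.2% of all 421 gene and position pairs. In all, 26 PABPC4 and 2 HNRNPC positions also lay inside another gene on the same strand, 42 and 6 were listed under more than 1 gene ID, and without the peaks in overlapping same-strand genes 211 members remained.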

How the data were processed

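CLIP for HNRNPC and PAPERCLIP for PABPC4 had been made in MDA-MB-231 cells, with 2 samples each. The submitters' processing notes name UMI-tools, cutadapt, BWA 0.7.17 and hg38 for all 4 samples. For HNRNPC, the study's methods state that the authors collapsed reads by molecular identifier, extracted the identifier with UMI-tools, trimmed with cutadapt, aligned with BWA and ran the CLIP Tool Kit to call peaks; the steps for PABPC4 are not given in the sources used here. The labels and methods name irCLIP for HNRNPC and the deposited list another form of CLIP, which was not settled here. The deposited signal of each peak is its height in pooled unique tags, not scaled to depth, and each entry carries a gene ID, an expected height and a p-value. Library depth is unknown here.

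Each position was counted once. Gene IDs were named through RefSeq (GRCh38.p14) and given GENCODE 44 models by symbol. A peak was inside when its centre lay in the gene on its strand, at an end when its 3′ edge was within 50 nt of a transcript end, otherwise exonic or intronic by its centre. Sequence features were read from GRCh38 with pysam 0.24.0. Repeated sequence was a 16-base word found at least 100 times on chromosome 22, leaving out words with 12 or more of one base. Shares have 95% Wilson intervals, and a share of 0 also the limit of 3 counts. With 1 pooled list per protein no test was made. The place rule was tested on simulated data and recovered 2000 of 2000 planted places. Members, comparison lists and alternatives were chosen with earlier results of these data known. Named were the 8 members with the tallest end peak, 5 with the tallest exon and 5 with the tallest intron peak, 6 with the tallest HNRNPC peak, 5 with the most peaks of each protein and 5 with the largest product of both counts; others were named after their values were seen. Alternatives covered p-value, height, windows, motifs, overlapping genes and repeated entries.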

Additional observations from a re-analysis of the deposited data

Results flagged for a closer look

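Signal lay outside the models used. Of the PABPC4 positions listed under a LINC gene ID, 38 in 13 genes were centred outside the GENCODE model of that symbol, with a median height of 33.5 tags and a tallest of 103 tags in LINC00674, and 24 in 13 genes belonged to symbols with no GENCODE model, with a median of 24.5 tags and a tallest of 113 tags in LINC00597. For HNRNPC there were 2 positions of each kind, the latter both in LINC00473. LINC00630 held 14 of the entries outside, and all 14 lay within its RefSeq span.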

How the results depend on the processing

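Of 127 recalculations of 14 values, 110 kept the value within 1.5 times of a count or within the counting interval of a share, and 17 moved. No paired analysis was possible because each protein had 1 list made from its pooled samples, and for the same reason no replicate could be left out. With heights at or above the median of each list, 99 members remained, 4 with both proteins, and 6 end peaks in 6 genes, the intron shares became 74.78% A-rich and 6.087% with a signal, and median heights became 55.5 tags at ends, 57 in introns and 14 for HNRNPC by construction. With 6 A in a row as the only definition of A-rich, the shares were 50.3% in introns and 20% at ends, and within 20 nt downstream they were 52.69% and 28.57%. With AATAAA alone the signal share at ends was 34.29%. Without peaks in repeated sequence, a setting added once the data had been seen, the intron signal share was 16.87%. With 4 U in a row 32.35% of HNRNPC peaks had a run, and in the 50 nt upstream 23.53%. Using RefSeq spans for symbols with no GENCODE model, also added then, gave 240 members. Low HNRNPC heights, with a median of 9 tags, limit what that list can show in these genes.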
